A study of Mus musculus with 7 samples.

Results

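Foxj1 and 44 other ciliary genes were followed in cancer-associated fibroblasts (CAFs) sorted from mouse pancreatic tumors. Foxj1 was chosen by its difference between the 2 groups of the study, and the rest by symbol: gene families of the cilium (Ift, Bbs, Cfap, Dnah, Dnaic, Dnali, Rsph and Tctn symbols, and Kif3a, Kif3b and Kif3c), plus Rfx2, Rfx3, Mns1 and Arl13b. This rule found 45 of the 12771 genes in the count table. Rfx3 was not analysed here. Because the rule names the shBrca2 and shControl groups, the differences of these 45 genes between the groups are given as a description, with no p-value for any of them. Calls and intervals printed for them come from the fit over all genes and are part of that description.

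The tumors grew in 8-week-old male C57BL/6 mice after orthotopic injection of KPC cells, a mouse line of pancreatic ductal adenocarcinoma. Lentiviral transduction had given these cells a short hairpin that silences Brca2 (shBrca2) or one with no target (shControl), and both groups came from the same KPC line. Tumors were taken 2 to 3 weeks later, and live podoplanin-positive cells without CD45, CD31 or EpCAM on their surface were sorted as CAFs. The shControl group held 3 libraries, numbered 1, 2 and 4, and the shBrca2 group 4, numbered 1 to 4. The methods count mice as replicates, and each library was taken as a separate mouse. The hairpin was in the cancer cells and not in the sorted fibroblasts, so Brca2 RNA in these libraries does not check the labels. Brca2 had a mean normalized count of 12.9 ± 4.18 (SD, n = 3) in shControl and 12.2 ± 2.56 (SD, n = 4) in shBrca2. Libraries held 1898679 to 5990579 counts. MARS-seq, which reads the 3′ ends of transcripts, was used, so a count is not scaled by transcript length and levels of different genes are not compared.

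A cilium is a microtubule axoneme that grows from a basal body and is covered by a specialised membrane. Fibroblasts usually carry a single non-motile primary cilium, a site of Hedgehog signaling, whereas multiciliated epithelial cells carry many motile ones. Intraflagellar transport (IFT) trains build and maintain both kinds. These trains, which hold IFT-A and IFT-B proteins, travel outward with kinesin-2 motors and return with cytoplasmic dynein. The BBSome carries membrane proteins, and the tectonic (Tctn) proteins belong to the transition zone, the gate at the ciliary base. Dynein arms, radial spokes and many Cfap proteins belong mostly to motile axonemes. Foxj1 is a forkhead transcription factor that switches on the genes of motile cilia. RFX factors, Rfx2 among them, regulate genes of both kinds of cilia through the X-box, a motif in their promoters.

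Of the 45 genes, 12 were of the Ift family (Ift20, Ift22, Ift27, Ift43, Ift52, Ift74, Ift80, Ift81, Ift88, Ift122, Ift140 and Ift172) and 8 of the Bbs family (Bbs1, Bbs2, Bbs4, Bbs5, Bbs7, Bbs9, Bbs10 and Bbs12). The Cfap family had 11 members (Cfap20, Cfap36, Cfap45, Cfap69, Cfap74, Cfap97, Cfap99, Cfap126, Cfap298, Cfap300 and Cfap410). The dynein arm genes were Dnah1, Dnah7b and Dnaic2, the radial spoke genes Rsph1 and Rsph9, the tectonics Tctn1, Tctn2 and Tctn3 and the kinesin-2 motors Kif3a and Kif3b. Foxj1, Rfx2, Mns1 and Arl13b completed the list. A mean normalized count over 5 was reached by 43 of them, all except Bbs10 and Dnah7b.

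The promoters were a feature that the rule did not use. RefSeq promoter entries of the GRCm38.p6 assembly, reaching from 250 bases before to 50 bases after a gene start, were matched for 39 of the 45 genes (not matched: Cfap97, Foxj1, Ift80, Ift81, Ift122 and Rsph1). An X-box spelling (GTNNCC, then 2 letters of any kind, then GGNAAC, on either strand) was found in 7 of these 39 genes (17.9%), against 1.49% of the 27025 genes with an entry and 1.83% of the 10086 genes of the count table with one. The following lines show each match in capitals in the direction of the gene, since these letters carry the spelling found in these 7 genes. The flanks in lower case are the neighbouring promoter bases. For Bbs1, the upstream match of Ift22 and Tctn2 the spelling lies on the opposite strand, so the capitals show its reverse complement.
Bbs1: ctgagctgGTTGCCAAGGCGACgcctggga
Bbs4: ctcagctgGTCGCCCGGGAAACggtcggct
Bbs7: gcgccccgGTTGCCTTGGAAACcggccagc
Cfap298: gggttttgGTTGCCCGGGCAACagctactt
Ift22, upstream match: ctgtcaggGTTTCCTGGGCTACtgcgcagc
Ift22, downstream match: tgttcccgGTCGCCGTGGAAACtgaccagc
Tctn1: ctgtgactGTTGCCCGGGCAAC
Tctn2: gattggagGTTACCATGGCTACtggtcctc

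On GRCm38.p6 these stretches lie at chr19:4906605-4906634 (minus strand) for Bbs1, chr9:59353464-59353493 (minus) for Bbs4, chr3:36613489-36613518 (minus) for Bbs7 and chr16:90935016-90935045 (minus) for Cfap298. Those of Ift22 lie at chr5:136908079-136908108 and chr5:136908109-136908138 (plus), that of Tctn1 at chr5:122264411-122264432 (minus), where the entry ends, and that of Tctn2 at chr5:124598679-124598708 (plus). Bbs1, Bbs7, Cfap298 and Tctn1 share the letters GTTGCC at the start of the capitals as shown, and in Cfap298 and Tctn1 all the letters in capitals are the same. The 6-letter motif GTTGCC, which can lie inside the longer one, was found on either strand in 20 of the 39 genes (51.3%), against 14.1% of all genes with an entry and 14.8% of those in the count table. The forkhead spelling TGTTTAC was found in 1 of the 39 (2.56%), Cfap20, against 4.05% of all genes and 3.08% of those in the count table, and TGTTTGT in 1 (2.56%), against 7.6% and 5.59%. These spellings are among 12 that were counted, and the ones shown were chosen after counting. A match is a run of letters and not a measured binding site.

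Foxj1 was lower in CAFs of shBrca2 tumors (RefSeq gene at chr11:116330704-116335499, GRCm38.p6). In the shControl libraries, in the order of their numbers, it had 41.0, 109 and 57.4 normalized counts, and in the shBrca2 libraries 9.47, 27.4, 12.1 and 14.2. All 3 shControl libraries lay above all 4 shBrca2 libraries, with shControl replicate 2 highest in its group and shBrca2 replicate 2 highest in the other. The raw counts behind these values were 48, 86 and 59 in shControl and 11, 47, 7 and 14 in shBrca2. The group means were 69.1 ± 35.4 (SD, n = 3) and 15.8 ± 7.97 (SD, n = 4), and the fitted log2 fold change of shBrca2 over shControl was -2.07 ± 0.45 (SE), a level 4.19-fold higher in shControl. Between 7 and 86 counts per library stand behind each value, and the highest shBrca2 value was 66.8% of the lowest shControl value. In these bulk samples, fewer cells that express a gene and less of its RNA per cell cannot be told apart.

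**Figure D1:**
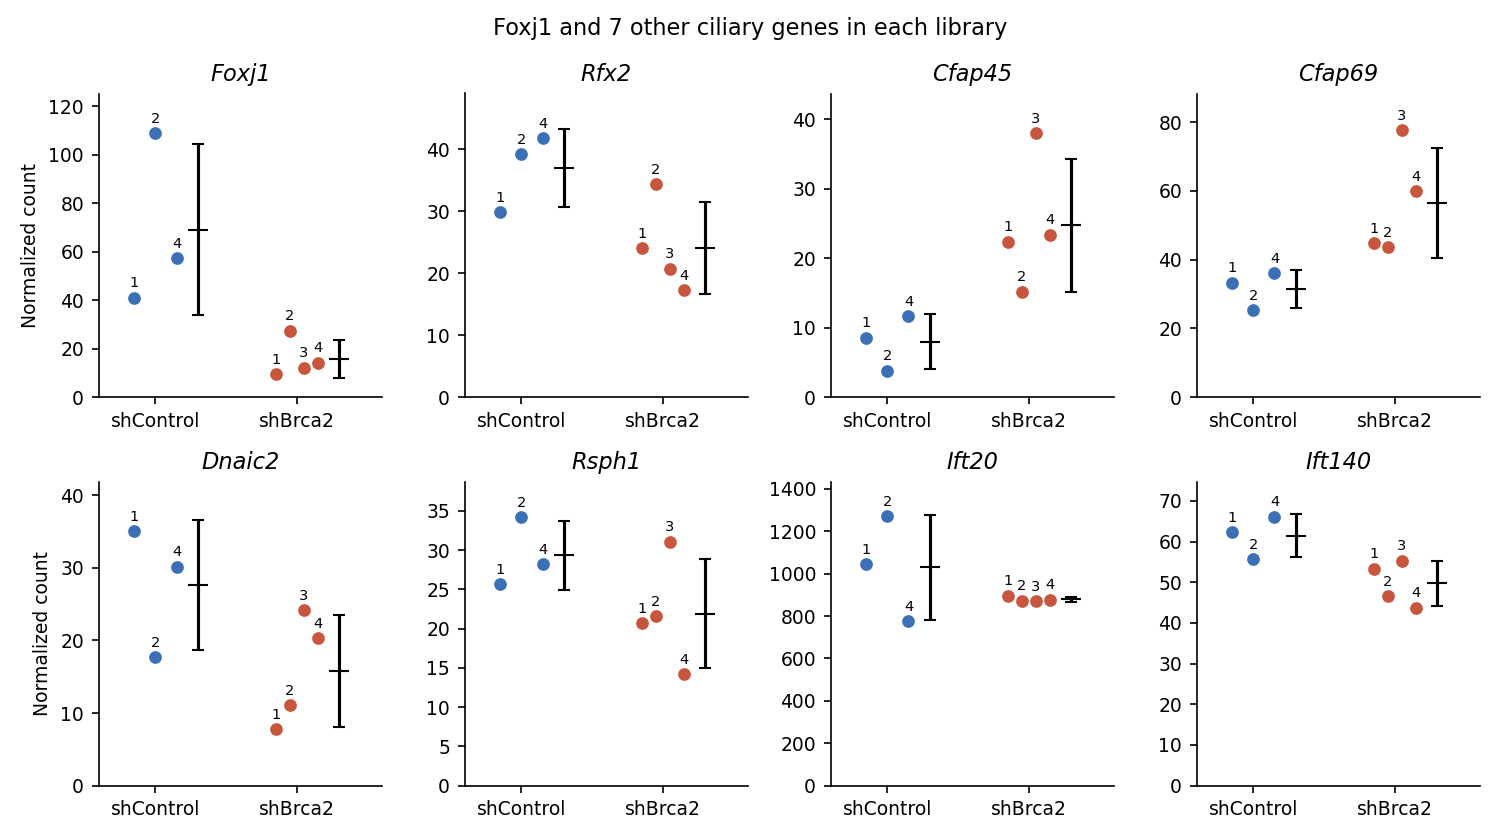
Normalized counts (vertical axes, linear and starting at 0, a different scale in each panel) of Foxj1, Rfx2, Cfap45, Cfap69, Dnaic2, Rsph1, Ift20 and Ift140 in each shControl (blue) and shBrca2 (red) library; numbers are replicate numbers and black bars are the group mean ± SD (n = 3 and n = 4). The Foxj1 points of shControl, 41.0 to 109, all lie above those of shBrca2, 9.47 to 27.4, whereas the Rfx2, Dnaic2, Rsph1 and Ift20 points overlap between the groups.

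Among the 12771 genes, 673 (5.27%) were called lower in shBrca2 and 481 (3.77%) higher, where a call required an adjusted p under 0.1 in the DESeq2 likelihood ratio test, an absolute log2 fold change over 0.5 and a mean normalized count over 5. Of the 45 ciliary genes, 1 was called lower (Foxj1) and 1 higher (Cfap45). Since the genes were chosen with this contrast in view, nothing is read from these counts. Of all 12771 genes, 0.603% had a lower fold change than Foxj1, and of the 673 called lower 33 did. Over 13 alternative analyses of the same libraries its log2 fold change ran from -2.53 (without shBrca2 replicate 2) to -1.59 (without shControl replicate 2), a range that describes the value and is no further support for it, since Foxj1 was chosen by this difference.

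Rfx2 (chr17:56775897-56831008), the other transcription factor among the members, was measured at 29.9, 39.2 and 41.8 in shControl and at 24.1, 34.4, 20.7 and 17.3 in shBrca2. The groups overlapped through shBrca2 replicate 2, which was again the highest of its group. The log2 fold change was -0.57 ± 0.35 (SE) and Rfx2 was not called. The 95% interval of this fold change was -1.26 to 0.12, and that of Foxj1 -2.94 to -1.19.

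None of the 12 Ift genes was called, and their log2 fold changes ran from -0.32 (Ift140) to 0.32 (Ift52), with 8 below 0 and a median of -0.07. Ift20, an IFT-B protein that also resides at the Golgi, had the most counts of the family, with 1044, 1270.1 and 776 in shControl and 897, 872, 870.5 and 878 in shBrca2. The shBrca2 libraries lay close together, inside the range of the shControl libraries. The log2 fold change of Ift20 was -0.23 ± 0.18 (SE). Of the last 500 exon bases of Ift20, 349 overlap exons of Tmem97 or Tnfaip1 on the opposite strand in GENCODE. Without strand information, reads from these bases cannot be told apart.

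Ift140, a core IFT-A protein, had 62.4, 55.7 and 66.1 normalized counts in shControl and 53.4, 46.6, 55.3 and 43.7 in shBrca2. The groups did not overlap, but the closest values of the 2 groups, 55.7 and 55.3, nearly met, and the log2 fold change was -0.32 ± 0.25 (SE). Ift27, a small GTPase of the IFT-B complex, was also higher in every shControl library, with 395, 350.4 and 338 against 281, 268, 321 and 311. Its log2 fold change was -0.30 ± 0.16 (SE), and neither gene was called. The 3 IFT-A genes (Ift43, Ift122 and Ift140) had a median log2 fold change of -0.17 and the 9 IFT-B genes one of -0.07. Ift22 and Ift52 were on the other side of 0, at 0.29 ± 0.21 and 0.32 ± 0.24 (SE).

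The kinesin-2 motor subunits had log2 fold changes of -0.15 ± 0.27 (SE, Kif3b) and -0.0081 ± 0.43 (SE, Kif3a). Kif3b was measured at 60.6, 46.8 and 75.9 in shControl and at 55.1, 46.6, 57.0 and 65.0 in shBrca2. The shControl libraries covered a wider range than the shBrca2 libraries, and the groups overlapped.

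Of the Bbs genes, 7 had a mean over 5; 4 had a log2 fold change below 0 and 3 above, and none was called. Bbs2, a subunit of the BBSome, had both the most counts and the largest change, with 45.3, 24.0 and 41.8 in shControl and 29.3, 25.6, 27.6 and 18.3 in shBrca2. The groups overlapped because shControl replicate 2 lay low, and the log2 fold change was -0.57 ± 0.35 (SE). Bbs7, Bbs4, Bbs9, Bbs1, Bbs12 and Bbs5 followed at -0.46, -0.33, -0.13, 0.012, 0.08 and 0.30, each smaller than its standard error of 0.34 to 0.57. Bbs10, a chaperonin-like protein needed to assemble the BBSome, had a mean of 3.35 normalized counts.

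Tctn2 was the tectonic with the largest change, with 64.1, 63.3 and 82.7 normalized counts in shControl and 47.3, 51.9, 57.0 and 46.8 in shBrca2. Every shControl library lay above every shBrca2 library, the log2 fold change was -0.48 ± 0.25 (SE) and Tctn2 was not called. Tctn1 and Tctn3 had log2 fold changes of 0.05 ± 0.31 and 0.20 ± 0.44 (SE). Tctn1 and Tctn2 both carry an X-box match in the lines shown earlier, and their fold changes lay on different sides of 0.

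The Cfap, dynein arm and Rsph families, grouped by symbol, lay on both sides of 0. The 15 Cfap, dynein arm and Rsph genes with a mean over 5 comprised 7 with a log2 fold change below 0 and 8 above, with a median of 0.0032. For the 24 Ift, Bbs, kinesin-2 and Tctn genes with a mean over 5 these were 15 below, 9 above and a median of -0.07.

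Dnaic2, an intermediate chain of the outer dynein arm, had 35.02, 17.7 and 30.2 normalized counts in shControl and 7.75, 11.1, 24.2 and 20.3 in shBrca2. The groups overlapped, with shControl replicate 2 below shBrca2 replicates 3 and 4. The log2 fold change, -0.89 ± 0.46 (SE), was the lowest after that of Foxj1, and Dnaic2 was not called. Dnah1, an inner arm heavy chain, had 29.9, 36.7 and 51.6 in shControl and 43.0, 36.7, 34.5 and 42.7 in shBrca2, with a log2 fold change of 0.0032 ± 0.30 (SE). All of its last 500 exon bases overlap exons of genes on the opposite strand in GENCODE, Bap1 among them, so without strand information its reads cannot be told apart from theirs. Dnah7b, another heavy chain, had a mean of 3.43 and no count in shControl replicate 1.

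Rsph1 and Rsph9 belong to the head of the radial spoke. Rsph1 was measured at 25.6, 34.2 and 28.2 in shControl and at 20.7, 21.6, 31.1 and 14.2 in shBrca2. Only shBrca2 replicate 3 reached the shControl range, and the log2 fold change was -0.45 ± 0.36 (SE). For Rsph9 it was -0.10 ± 0.29 (SE).

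Cfap45, a protein inside the doublet microtubules of motile axonemes (gene at chr1:172521130-172545870), was the ciliary gene called higher in shBrca2. It had 8.54, 3.80 and 11.7 normalized counts in shControl and 22.4, 15.2, 38.0 and 23.4 in shBrca2. All shBrca2 libraries lay above all shControl libraries, with shBrca2 replicate 3, the library with the fewest total counts, highest. The raw counts were low, at 10, 3 and 12 in shControl and 26, 26, 22 and 23 in shBrca2. The log2 fold change was 1.54 ± 0.50 (SE), a 2.91-fold higher level in shBrca2. Its call was kept in 7 of the 13 alternatives and lost in the other 6, among them those without shControl replicate 1 or 2 or shBrca2 replicate 1, 3 or 4, where the log2 fold change stayed between 1.24 and 1.59.

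Cfap69 showed the same order, with 33.3, 25.3 and 36.0 in shControl and 44.7, 43.7, 77.7 and 60.0 in shBrca2. The groups did not overlap and shBrca2 replicate 3 was again highest, but with a log2 fold change of 0.80 ± 0.31 (SE) Cfap69 missed the call. It was called when the table was limited to genes with 10 or more counts in at least 3 libraries. Cfap20, the member of this family with the most counts, was measured at 272, 228 and 225 in shControl and at 212, 203, 278 and 247 in shBrca2. Its groups overlapped, and its log2 fold change was -0.05 ± 0.19 (SE). The remaining Cfap genes lay between -0.42 (Cfap74) and 0.44 (Cfap97).

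Mns1, which lies inside doublet microtubules as Cfap45 does, had 11.1, 19.0 and 10.7 normalized counts in shControl and 29.3, 19.8, 12.1 and 30.5 in shBrca2. The groups overlapped through shBrca2 replicate 3, the log2 fold change was 0.81 ± 0.45 (SE) and Mns1 was not called. Arl13b, a small GTPase of the ciliary membrane, had 73.5, 32.9 and 40.9 in shControl and 43.0, 75.8, 20.7 and 52.9 in shBrca2. Both groups spread widely, and the log2 fold change of Arl13b was -0.0074 ± 0.41 (SE), or 0.41 without shControl replicate 1.

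**Figure D2:**
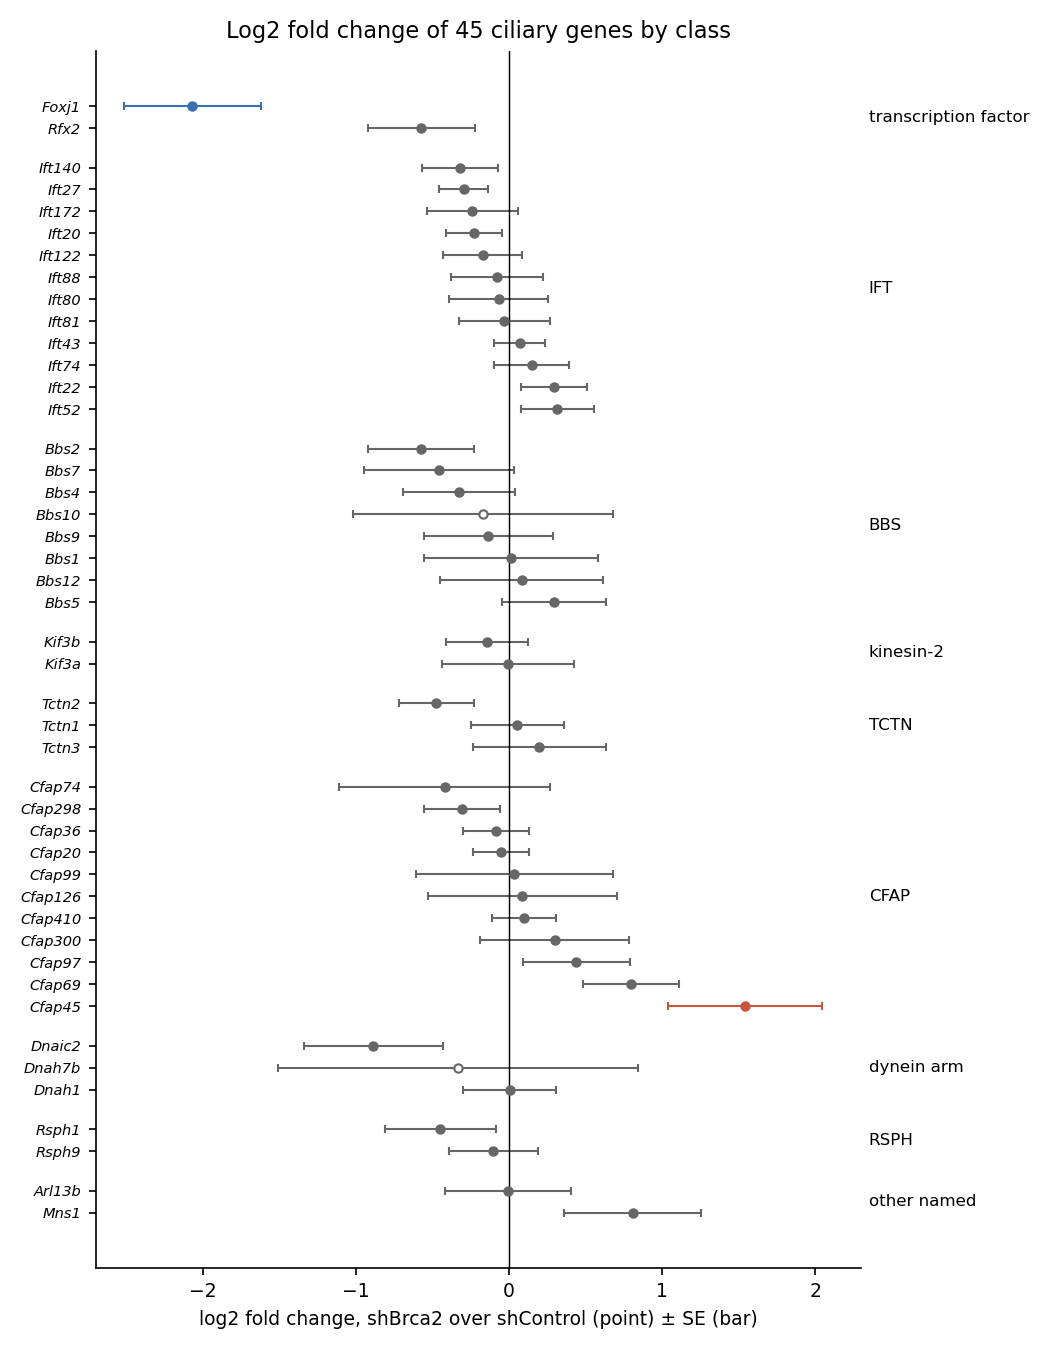
Log2 fold change of shBrca2 over shControl (horizontal axis, points) ± SE (bars) for the 45 genes, grouped by class and ordered by value within it; blue is called lower, red is called higher, grey is not called, and open circles mark Bbs10 and Dnah7b, with a mean of 5 or less. Foxj1 at -2.07 and Cfap45 at 1.54 stand at the ends, and the Ift genes lie between -0.32 and 0.32.

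The ciliary genes were also set beside all genes. Of the 43 with a mean over 5, 25 had a log2 fold change below 0 and 18 above, with a median of -0.05, or -0.04 without Foxj1. Of the 11632 genes of the table past the same level, 49.7% were below 0 and the median was 0.0021. The middle of the distribution, from the first to the last quartile, ran from -0.30 to 0.09 for the ciliary genes and from -0.26 to 0.27 for all genes. An absolute log2 fold change under 0.5 was found for 36 of the 43 (83.7%) against 73.9% of all genes, and one over 1 for 2 (4.65%) against 8.56%. The 95% interval lay within -1 to 1 for 25 of the 43 (58.1%) and for 59.8% of all genes. For the other 18 ciliary genes the interval included a 2-fold or larger difference. That of Foxj1, 1 of these 18, lay wholly beyond 2-fold (-2.94 to -1.19). Members with low counts have wide intervals, such as that of Cfap74, -1.77 to 0.93.

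**Figure D3:**
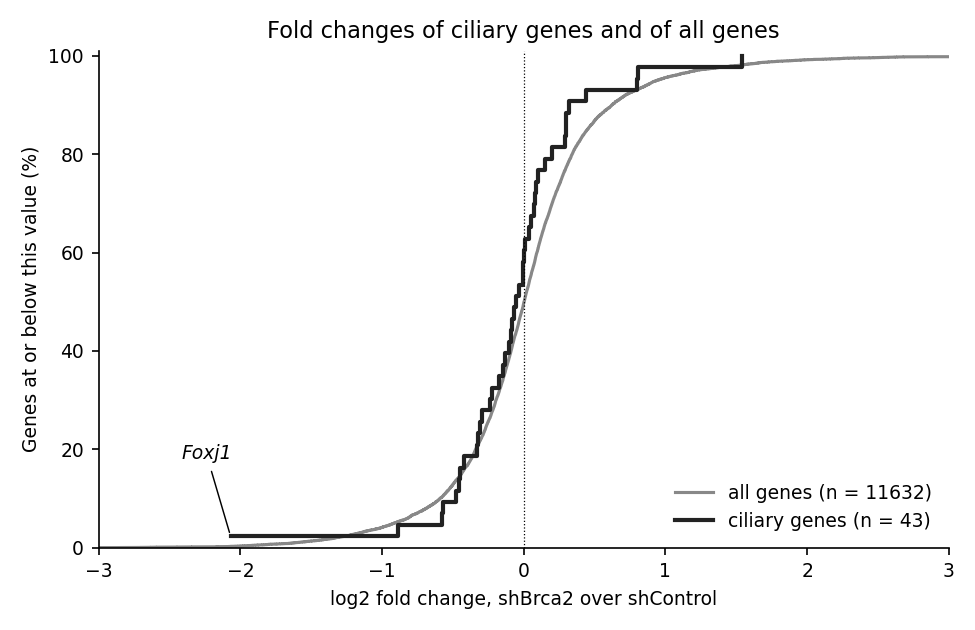
Percent of genes (vertical axis) at or below each log2 fold change of shBrca2 over shControl (horizontal axis, cut at -3 and 3) for the 43 ciliary genes (black steps) and all 11632 genes (grey) with a mean normalized count over 5. Foxj1 forms the separate first step at -2.07. Around 0 the black steps lie above the grey curve, with 58.1% of the ciliary genes and 49.7% of all genes below 0. The upper quartiles are 0.09 and 0.27.

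The groups did not overlap, with shControl above, for 4 of the 45 genes (Foxj1, Ift27, Ift140 and Tctn2), where 9.29% of all genes showed that order. The groups did not overlap with shBrca2 above for 2 genes (Cfap45 and Cfap69), where 7.78% of all genes did. Summed over the 45 genes, the level scaled to the library total (CPM) was 1006, 959 and 954 in the shControl libraries and 972, 880.4, 1012 and 1014 in the shBrca2 libraries. The 2 ranges overlapped, and Ift20 alone gave 23.1% to 36.7% of this sum. Across the 42 genes other than Foxj1 with a mean over 5, each centred on its own mean, the median log2 level was 0.08, -0.19 and 0.10 in shControl and -0.06, -0.04, 0.01 and 0.06 in shBrca2. shControl replicate 2 was the lowest library for 16 of these 42 genes and shControl replicate 4 the highest for 13, and Foxj1 was highest in shControl replicate 2. Without shControl replicate 2 the median log2 fold change of the members was -0.19, and without shControl replicate 4 it was 0.04.

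Members with and without the GTTGCC motif covered overlapping ranges of fold change. The 19 genes with the motif and a mean over 5 had a median log2 fold change of -0.08 (from -0.89 to 0.81), and the 18 without it one of 0.05 (from -0.57 to 1.54). The motifs were also found among the other ciliary genes described next: 12 of the 96 with a promoter entry (12.5%) held the X-box spelling and 36 (37.5%) held GTTGCC.

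Ciliary genes outside the symbol rule were taken from 9 lists of regulators, transport, transition zone, basal body, membrane, axoneme and disassembly genes. Of 111 such genes, 4 were called lower in shBrca2 (Adcy3, Ccno, Rab23 and Tppp3) and 1 higher (Nedd9), beside 5.27% and 3.77% of all genes. The 103 with a mean over 5 had 55 log2 fold changes below 0 and 48 above, and a median of -0.05. No gene was called among 17 further IFT and motor genes, 8 further BBSome-related genes, 18 transition zone genes and 15 basal body genes. At an unadjusted p under 0.05 (DESeq2 likelihood ratio test) these 4 lists had 1, 1, 0 and 0 genes with a mean over 5. They were grouped for having no called gene, so such low counts were largely set in advance. Over all 103 of the other ciliary genes with a mean over 5 the count was 12, beside 2153 of the 11632 such genes in the table. Foxj2 and Foxj3, the relatives of Foxj1, had log2 fold changes of -0.61 ± 0.28 and 0.01 ± 0.27 (SE) and were not called. Less stable calls were those of Adcy3, Rab23 and Nedd9, which were kept in 6, 7 and 6 of the 13 alternatives.

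Ccno, an atypical cyclin needed to multiply basal bodies in multiciliated cells, had 55.5, 51.9 and 52.5 normalized counts in shControl and 15.5, 30.9, 15.5 and 14.2 in shBrca2. The shControl libraries lay close together and above all shBrca2 libraries. The log2 fold change was -1.43 ± 0.35 (SE, DESeq2 adjusted p = 0.0018). Tppp3, a tubulin-binding protein found in motile axonemes and also in other cells, had 1496, 1388 and 971 in shControl and 274, 694, 249 and 219.5 in shBrca2. Again the groups did not overlap and shBrca2 replicate 2 was the highest of its group, as it was for Foxj1, Rfx2 and Ccno. The log2 fold change was -1.83 ± 0.36 (SE, DESeq2 adjusted p = 3.35e-05), and the calls of Ccno and Tppp3 were kept in all 13 alternatives, with adjusted p up to 0.0996 and 0.0766.

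Rab23, a small GTPase that acts on Hedgehog signaling, was measured at 37.6, 34.2 and 26.3 in shControl and at 14.6, 17.5, 19.0 and 11.2 in shBrca2. The groups did not overlap, and the log2 fold change was -1.08 ± 0.37 (SE, DESeq2 adjusted p = 0.046). Leaving out shControl replicate 1 or 2 or shBrca2 replicate 1, 2 or 4 raised its adjusted p to between 0.12 and 0.34. Adcy3, an adenylyl cyclase of primary cilia, had 179, 248 and 214 in shControl and 139, 128, 187 and 139 in shBrca2. The groups overlapped, and the log2 fold change was -0.54 ± 0.21 (SE, DESeq2 adjusted p = 0.099). Its call was lost without any library other than shBrca2 replicate 3, and all of its last 500 exon bases overlap Cenpo on the opposite strand.

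Nedd9, a scaffold protein that takes part in ciliary disassembly, was measured at 36.7, 26.6 and 31.1 in shControl and at 57.7, 55.4, 74.3 and 44.7 in shBrca2. All shBrca2 libraries lay above all shControl libraries, and the log2 fold change was 0.85 ± 0.29 (SE, DESeq2 adjusted p = 0.052). The call was lost without any library other than shBrca2 replicate 4, with adjusted p of 0.13 to 0.22. Of the 7 listed disassembly genes, 6 had a log2 fold change above 0 and 1 below, with a median of 0.52, and only Nedd9 was called. All 7 markers of cycling cells with a mean over 5 were above 0 as well, with a median of 0.52. Whether these shifts are linked was not tested.

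**Figure D4:**
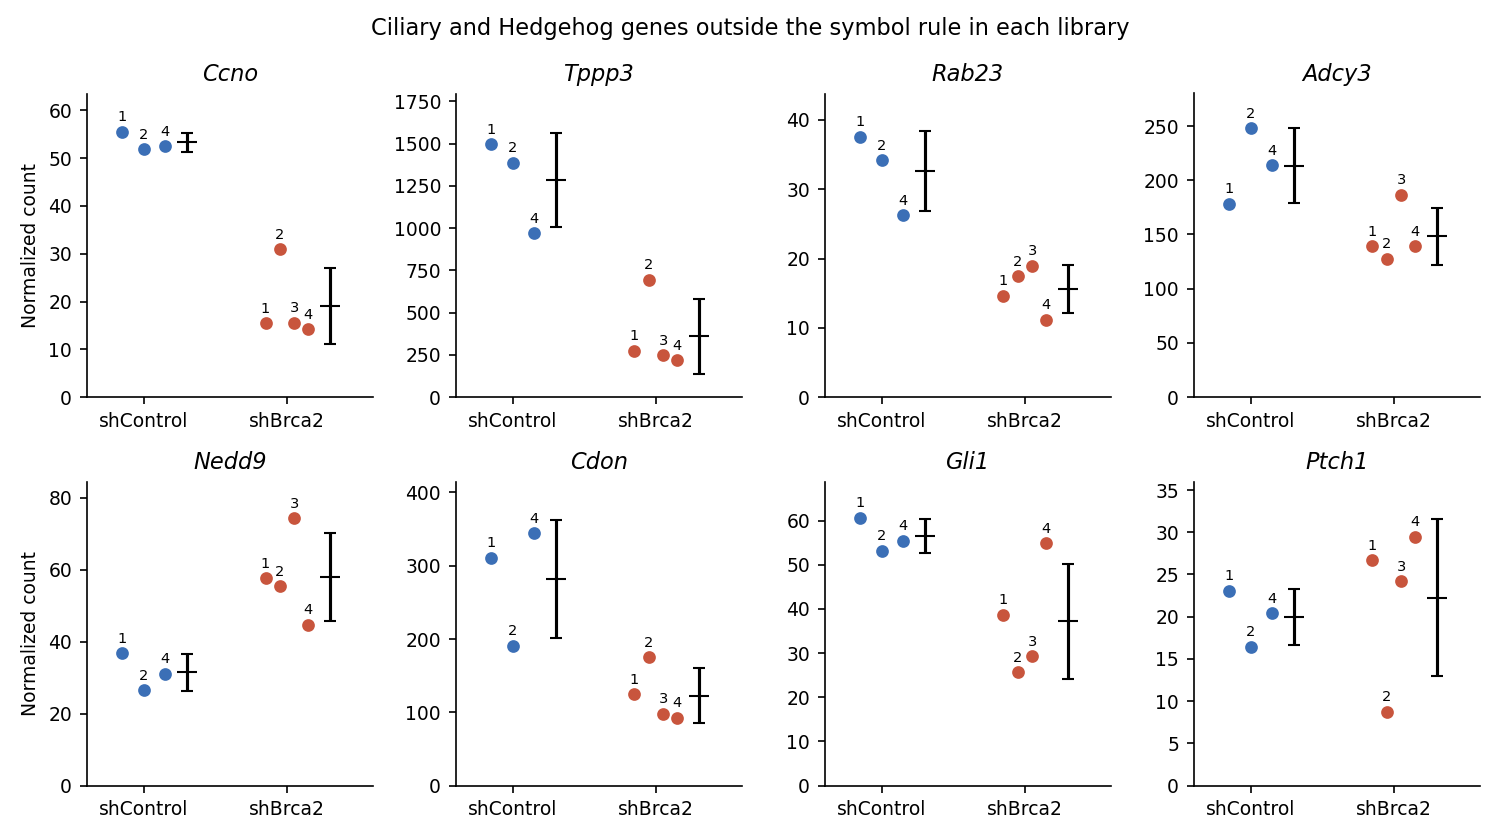
Normalized counts (vertical axes, linear and starting at 0, a different scale in each panel) of Ccno, Tppp3, Rab23, Adcy3, Nedd9, Cdon, Gli1 and Ptch1 in each shControl (blue) and shBrca2 (red) library; numbers are replicate numbers and black bars are the group mean ± SD (n = 3 and n = 4). All Ccno, Tppp3, Rab23 and Cdon points of shControl lie above those of shBrca2, Nedd9 shows the opposite order, and the Adcy3, Gli1 and Ptch1 points overlap.

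Of 10 Hedgehog pathway genes, 1 was called, beside 9.04% of all genes called either way. The called gene, the co-receptor Cdon, was lower in shBrca2 with a log2 fold change of -1.19 ± 0.28 (SE, DESeq2 adjusted p = 0.0011). Its call was kept in all 13 alternatives. Gli1 and Ptch1, both components and targets of the pathway, had -0.61 ± 0.32 (SE, DESeq2 adjusted p = 0.29) and 0.12 ± 0.46 (SE, DESeq2 adjusted p = 0.94).

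Among markers of other cells, the summed epithelial and immune levels were higher in every shBrca2 library than in any shControl library, the immune sum through 1 of its 2 genes. Foxj1 and Ccno are themselves markers of multiciliated epithelium. They are 2 of the 10 genes on that list and the 8 others were not analysed here. Their summed level was 27.4 to 44.5 CPM in shControl and 7.87 to 16.7 in shBrca2. Since Foxj1 was chosen by its group difference, the order of this sum was partly set by that choice and is no further support. The epithelial markers (6 of 8 analysed) went the other way, at 109 to 324 CPM in shControl and 411 to 634 in shBrca2, with Krt7, Krt8, Krt18 and Krt19 called higher and Cldn7 at 0 in shBrca2 replicates 3 and 4. Mesothelial markers (7 of 8) were at 257 to 842 and 628 to 803, cycling markers (8 of 9, with Ccnb1 called higher) at 174 to 315 and 241 to 386, and immune markers (2 of 5) at 42.3 to 51.1 and 84.3 to 92.0, with Csf1r called higher (log2 fold change 1.15 ± 0.22, SE) and Lyz2 not called (-0.26 ± 0.35, SE). Endothelial markers (2 of 4) were at 10.9 to 29.6 and 22.6 to 33.7, with Pecam1 at 0 in shBrca2 replicates 3 and 4, and Schwann cell markers (2 of 4) at 2.80 to 9.23 and 1.63 to 4.21, with Sox10 at 0 in shBrca2 replicates 1 and 4. All 8 fibroblast markers were present, and their sum was lower in every shBrca2 library (30303 to 33522) than in any shControl library (34983 to 38905). Dcn and Lum were called lower. The others were not called, with log2 fold changes of -0.44 (Col3a1), -0.25 (Pdpn), -0.09 (Col1a2), -0.06 (Pdgfrb), -0.04 (Col1a1) and 0.01 (Pdgfra). The part of these shifts in the Foxj1, Ccno and Cfap45 differences was not tested.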

How the data were processed

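RNA-seq of sorted CAFs was analysed in 3 shControl and 4 shBrca2 libraries, grouped by the silencing status in the labels. The authors deposited raw read counts per gene symbol in a single table. The submitters' processing notes name bcl2fastq, cutadapt, STAR 2.4.2a, HTSeq, DESeq2 and the mm10 build. The strand setting and the treatment of molecular barcodes are not given in the sources used here, so counts were treated as read counts. Library totals were 1898679 to 5990579, and low counts set the precision of members with few reads. No library pair agreed within sampling noise (lowest mean chi-square per gene 3.16, between shBrca2 replicates 1 and 4). By this measure shControl replicate 2 lay nearer to shBrca2 replicates 2 and 3 (13.2 and 14.7) than to shControl replicates 1 and 4 (15.4 and 15.5). The measure was not corrected for the differing library totals.

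DESeq2 1.42.0 (R 4.3.3) was run on all 12771 genes with its default size factors, and the group term was tested by likelihood ratio as in the study's methods, with Benjamini-Hochberg adjustment over all genes. Genes were called at adjusted p under 0.1, absolute log2 fold change over 0.5 and mean normalized count over 5. Unshrunken fold changes are given with their standard error (SE), 95% intervals are ± 1.96 SE, and group means are given with their SD. The script was tested on simulated counts.

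Members and lists were chosen with earlier results of these data known. Named genes were the transcription factors, Mns1, Arl13b and every called gene, and in each class the gene with the most counts and the gene with the largest change. Ift27, Tctn1, Tctn3, Cfap69, the remaining Bbs and Cfap genes with a value, Ift22 and Ift52, Foxj2 and Foxj3 were named after their values were seen. Of the Hedgehog list, Gli1, Ptch1 and every called gene were named. Alternatives were edgeR 4.0.16 with TMM factors, the DESeq2 Wald test, TMM factors in DESeq2, other filters, a replicate block and leaving out each library. Promoters and positions came from RefSeq tables of GRCm38.p6, the assembly behind mm10. Exon overlaps came from a GENCODE annotation of another build and were used without coordinates. Of the 44 members found there, 5 (Bbs2, Cfap410, Dnah1, Ift20 and Mns1) shared any of their last 500 exon bases with genes on the opposite strand. Cfap410 and Dnah1 shared all of these bases.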

Additional observations from a re-analysis of the deposited data

Results flagged for a closer look

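In 23 checks of groups of 4 libraries, 2 had a library far from the others, where chance gives about 1 in 20. The checks used the same 4 shBrca2 libraries and are not independent, so nothing is read from this count. The far library was shBrca2 replicate 2 both times, the one with the most counts. For Ccno its normalized count was 30.9 and the next highest was 15.5, a gap of 0.921 of the group's range. For Tppp3 its normalized count was 694 and the next highest was 274, a gap of 0.886 of the range, and both gaps exceed Dixon's 95% critical value. Foxj1 and Rfx2 were also highest in this library among the shBrca2 libraries, at 27.4 and 34.4, with gaps below that value. Without shBrca2 replicate 2 the log2 fold changes of Foxj1, Ccno and Tppp3 were -2.53, -1.83 and -2.38.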

How the results depend on the processing

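The count of members called lower was 1 (Foxj1) in the main analysis and in each of 13 alternatives, which is no independent support, since Foxj1 was chosen by this difference. The count called higher was 1 in the main analysis, 2 with the filter of 10 counts in at least 3 libraries and 0 with the replicate block, and 0 to 1 when a library was left out. The median log2 fold change of the members, -0.053, ran from -0.1858 (without shControl replicate 2) to 0.03821 (without shControl replicate 4) when a library was left out. Of the other ciliary genes, 4 were called lower in the main analysis, 2 with the replicate block and 2 to 5 when a library was left out. 1 was called higher, 0 with the block and 0 to 4 when a library was left out, the 4 without shControl replicate 2. For 22 single genes there were 286 alternative values. Of these, 259 kept the call and direction of a called gene or, for an uncalled gene, lay within 1 SE of its main value. In 26 the call was lost, and in 1 an uncalled gene (Arl13b) moved further. No called gene changed direction. Direction was not compared for uncalled genes, and some near 0 changed sign, such as Kif3b, from -0.15 to 0.04 without shControl replicate 4.

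Over all genes, 673 lower and 481 higher calls became 280 and 211 with the block, and, when shControl replicate 1 or 4 was left out, 366 and 264 or 418 and 386. Leaving out shBrca2 replicate 1 gave 354 and 261, and leaving out shBrca2 replicate 4 gave 372 and 290. Lower calls did not drop in the remaining leave-outs: omitting shControl replicate 2 gave 695 lower and 610 higher calls, omitting shBrca2 replicate 2 gave 674 and 374, and omitting shBrca2 replicate 3 gave 674 and 489. Replicate numbers did not pair the samples: the deviations of same-numbered libraries correlated at -0.0657, -0.0978 and -0.0947, and no shControl library correlated best with its own number. Among the named genes the block ended the call of Cfap45 and those of Rab23, Adcy3 and Nedd9, for which it gave adjusted p of 0.364, 0.306 and 0.559 (DESeq2). Depth limits the genes with few counts, such as Cfap45. The cause of these shifts was not tested.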
